A study of Mus musculus with 10 samples.

Results

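The radial glia-like stem cell genes followed here are Nes, Vim, Lpar1, Prom1, Fabp7, Thrsp, Hopx, Sox2, Sox9 and Nr2e1. They are 10 of the 19752 genes measured, and each was taken as the probe set that the platform annotation assigns to that gene alone. Each of the 10 had 1 such probe set, so no choice between probe sets arose. Total RNA of microdissected mouse dentate gyri was hybridised to whole-transcript expression arrays, with 2 arrays at each of 4, 6, 8, 10 and 12 weeks of age and 10 in all. The strain is spelled C56BL/6J in the labels, which name no treatment and no altered allele. Nothing in them ties an array to 1 animal, to a pool or to a separate extract. The p-values of the comparisons between ages therefore rest on the scatter between arrays of the same age, part of which may be technical. Those of the trend over age also rest on how far the levels depart from a straight line.

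Radial glia-like cells are the stem cells of the dentate gyrus, the hippocampal region that goes on making granule neurons after birth. Their cell bodies lie in the subgranular zone, most of them rest outside the cell cycle, and when they divide they give rise to intermediate progenitors and then to neuroblasts. They share much of their gene expression with astrocytes, and most genes used to mark them are also active in other cells. Nestin and vimentin occur in cells of blood vessels, Lpar1 in myelinating oligodendrocytes, and Sox2, Sox9 and Fabp7 in astrocytes. In RNA from whole tissue, fewer cells of a type and less RNA per cell cannot be told apart.

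All levels below are log2 units of the deposited values. The arrays had medians between 8.27 and 8.31, and their pairwise Pearson correlations across genes ranged from 0.994 to 0.998. Replicate 1 of 8 weeks stood apart, with a mean correlation of 0.995 to the other arrays and an SD across genes of 2.12, both the lowest. Replicate 1 of 6 weeks had 13.77 for the choroid plexus gene Ttr, against 8.87 to 10.15 on the others. The labels give the sex as female, but Xist lay between 5.41 and 6.02 on all arrays and the Y-linked genes Uty, Kdm5d and Eif2s3y between 8.59 and 9.34. Olfactory, vomeronasal and trace amine receptor genes, few of which are thought to be active in brain, set a level for dim signal. The 95th percentile of the 1203 such genes averaged 7.01, and all 10 stem cell genes lay above the value of the same array on all 10 arrays. This dim level ran from 6.88 to 7.18 over the arrays. Xist thus lay below it and the Y-linked genes above it on all arrays, a male pattern that contradicts the female label. Of all genes, 72.8% had a mean above 7.01. The granule cell markers Prox1, C1ql2 and Dsp averaged 12.29, 11.58 and 11.42, and 0 of the 8 granule cell markers were dim. Over age 1 of these 8 fell (Tdo2, by 0.44 ± 0.08 on the log2 scale). Of 8 choroid plexus, 6 microglia and 6 pyramidal cell genes, limma called 0, 0 and 0, with 1, 2 and 0 at an unadjusted p under 0.05.

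RefSeq (GRCm38.p6) gave start sites for 9 of the 10 genes, all but Sox9. The 250 bases before the first listed start site are printed for 4 genes on which the results below turn: Nes, which fell, Fabp7 and Vim, whose levels went together, and Thrsp, the gene whose fitted change was positive. Lpar1 has 3 listed start sites and is not printed. Capitals mark letters that matched 1 of 4 motifs on either strand. The CCAAT box was searched by the letters of its name. The GC box, bound by Sp1 and related factors, was taken as GGGCGG. The TATA box, at which general transcription factors assemble, was taken as TATAAA. The E-box, bound by basic helix-loop-helix factors, was taken as CANNTG, where N stands for any base. The cores of SOX factor sites were searched as well, as ACAATG and in the form ACAAAG, and have no match in these 4 windows.
Nes, chr3:87970843-87971092, plus strand: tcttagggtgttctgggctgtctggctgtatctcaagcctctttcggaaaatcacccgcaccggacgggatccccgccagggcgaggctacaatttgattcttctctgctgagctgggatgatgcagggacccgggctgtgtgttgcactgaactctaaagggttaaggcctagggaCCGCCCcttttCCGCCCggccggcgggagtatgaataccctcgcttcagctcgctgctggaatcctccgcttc
Fabp7, chr10:57784673-57784922, plus strand: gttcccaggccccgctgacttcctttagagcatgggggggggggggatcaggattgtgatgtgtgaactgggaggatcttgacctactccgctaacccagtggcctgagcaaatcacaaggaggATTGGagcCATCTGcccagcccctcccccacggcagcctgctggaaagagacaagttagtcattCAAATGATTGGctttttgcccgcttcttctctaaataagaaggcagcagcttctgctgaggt
Vim, chr2:13574061-13574310, plus strand: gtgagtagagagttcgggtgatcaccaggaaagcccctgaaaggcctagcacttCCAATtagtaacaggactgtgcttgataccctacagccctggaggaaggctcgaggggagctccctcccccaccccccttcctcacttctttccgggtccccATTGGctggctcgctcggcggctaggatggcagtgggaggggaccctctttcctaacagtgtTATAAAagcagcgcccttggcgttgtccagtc
Thrsp, chr7:97417551-97417800, minus strand: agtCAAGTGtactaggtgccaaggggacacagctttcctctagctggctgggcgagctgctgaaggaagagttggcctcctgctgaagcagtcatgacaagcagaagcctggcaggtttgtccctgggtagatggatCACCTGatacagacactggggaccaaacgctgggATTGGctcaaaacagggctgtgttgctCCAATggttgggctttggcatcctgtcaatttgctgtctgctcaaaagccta

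Before its start site Nes had 2 GC boxes and no other of these matches. Fabp7 and Thrsp each had 2 CCAAT boxes and 2 E-boxes, and Vim had 2 CCAAT boxes and a TATA box. In Fabp7 the second E-box and the second CCAAT box stand side by side, and no matches overlap. Among the 9 genes, at the first listed start site, 6 had a CCAAT box, 4 a GC box, 4 an E-box and 1 (Vim) a TATA box. The shares among all 32851 listed windows of that length were 33.8%, 32.7%, 66.2% and 12.4%. The SOX core ACAAAG occurred in 1 of the 9 (Sox2) and in 16.5% of all windows, and ACAATG in 0 of the 9 and 10.7% of all. A match is a run of letters and not a shown binding site.

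The stem cell genes separated into a pair that fell with age and a larger group with no change past the threshold. Nes and Lpar1 fell 1.43-fold and 1.41-fold over the 8 weeks. For the other 8 genes the fitted change ran from -0.39 for Fabp7 to 0.28 for Thrsp, and none passed. The trend was the coefficient of age in weeks in limma, given as the change over 8 weeks, with Benjamini-Hochberg adjustment over all 19752 genes and a threshold of 0.05. By that rule 0.673% of all genes fell and 0.147% rose. Of the 10 stem cell genes, 2 fell and 0 rose, 9 had a negative change, and the median change was -0.19. Over all genes 48.8% had a negative change and the median was 0.00. At an unadjusted p under 0.05, 4 of the 10 were lower and 1 was higher, against 7.28% and 4.41% of all genes.

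**Figure D1:**
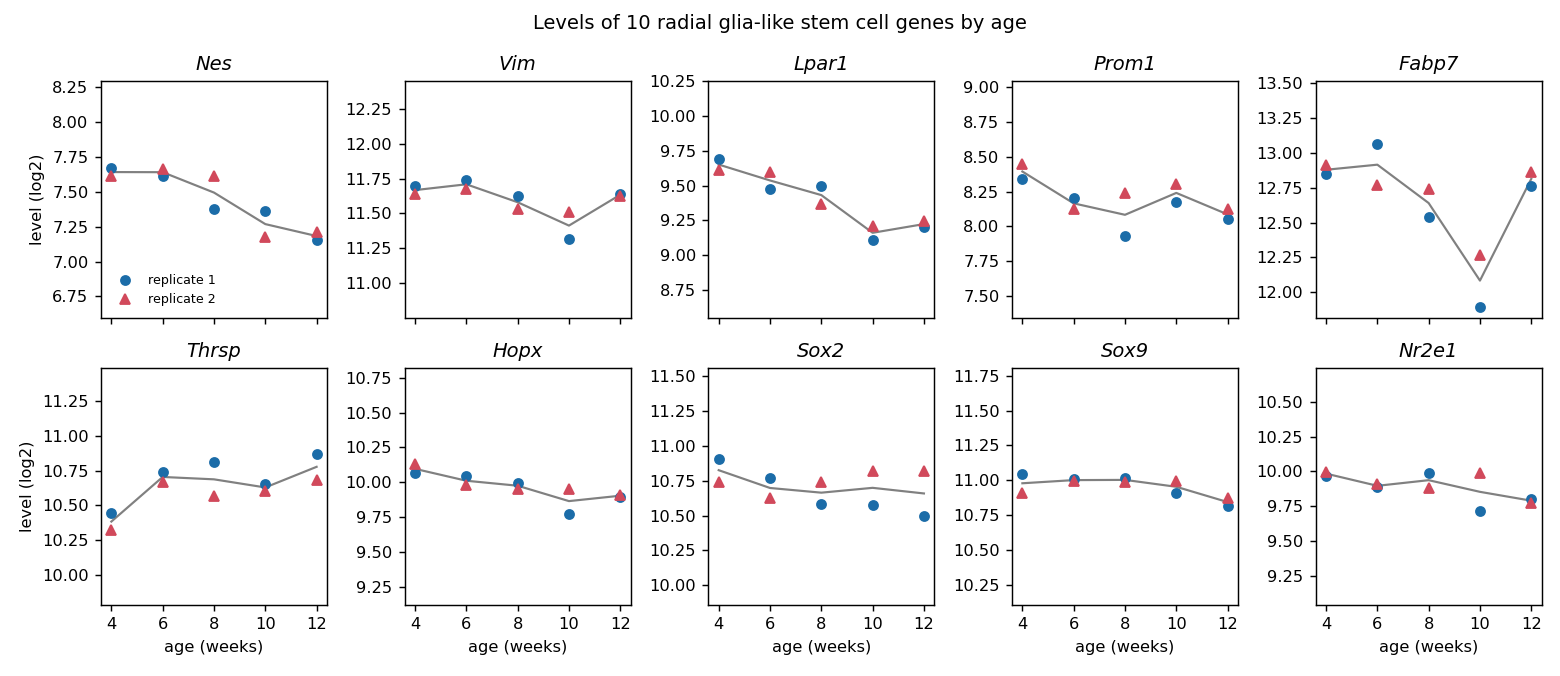
Levels (log2 units, vertical axis, 1.7 units in every panel) of the 10 genes against age in weeks, with circles for replicate 1, triangles for replicate 2 and a grey line through the age means. Nes and Lpar1 end lower at 12 weeks than they begin at 4, Fabp7 has its lowest values at 10 weeks (11.90 and 12.27), and Thrsp has its lowest at 4 weeks (10.45 and 10.32).

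Nes and Vim encode intermediate filament proteins, nestin and vimentin, which polymerise together in radial glia. Nes had 7.67 and 7.61 at 4 weeks, 7.62 and 7.67 at 6, 7.37 and 7.62 at 8, 7.36 and 7.18 at 10, and 7.15 and 7.21 at 12 weeks. Both 12-week arrays lay below all arrays of 4, 6 and 8 weeks, while the 8-week arrays were 0.24 apart. The fitted change was -0.52 ± 0.08 (SE), with a 95% interval of -0.70 to -0.33 and an adjusted p of 0.0162. Its age means were lower at every step, which held for 1 of the 10 genes and for 2.23% of all genes. The first of these steps, from 4 to 6 weeks, was -0.00 on the log2 scale, with a 95% interval of -0.22 to 0.21. Nes stood 0.77 and 0.64 above the dim level of the same array at 4 weeks, and 0.17 above it on both 12-week arrays. A fall that ends so near the dim level may be understated. Leaving out replicate 1 of 4 weeks ended the call (adjusted p = 0.0762), as did leaving out replicate 1 or 2 of 12 weeks (0.069 and 0.0517). It was also lost without both arrays of 12 weeks (0.183) or of 4 weeks (0.224).

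Vim had 11.70 and 11.64 at 4 weeks, 11.74 and 11.68 at 6, 11.63 and 11.53 at 8, 11.32 and 11.51 at 10, and 11.64 and 11.63 at 12 weeks. The values of 12 and 4 weeks overlapped, and the lowest were those of 10 weeks. Over age it had a fitted change of -0.15 ± 0.10 (SE, 95% interval -0.35 to 0.06, adjusted p = 0.631). From 10 to 12 weeks Vim had a change of 0.22 ± 0.08 (unadjusted p = 0.0208, adjusted p = 0.866). The unequal course of the filament genes was tested as the trend of the difference between them on the same array. Nes was chosen for this test with its fall known, and 96.3% of all genes were called as less negative or higher than Nes. Relative to Nes, Vim had a change of 0.37 ± 0.13 (adjusted p = 0.0126). That call was lost without replicate 1 or 2 of 12 weeks (0.078 and 0.0506), and without both the difference was 0.15 (0.459).

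Markers of blood vessels, where both filament genes are also known, were not called. In the endothelial list 0 of 9 measured genes passed in either direction (median change 0.05), with the tight junction gene Cldn5 (0.24 ± 0.13) and the VEGF receptor genes Flt1 (0.40 ± 0.12) and Kdr (-0.19 ± 0.13). In the mural list 0 of 10 passed (median 0.06). At an unadjusted p under 0.05 the limma test had 2 endothelial and 3 mural genes higher and none lower. Linear signal summed over the endothelial markers, in units of 1000, was 3.80 to 3.98 at 4 weeks, 4.35 to 4.56 at 6, 4.12 to 4.40 at 8, 3.73 to 4.08 at 10, and 4.17 to 5.10 at 12 weeks. The 10-week arrays overlapped those of 4 weeks in this sum and lay below those of 6, 8 and 12 weeks. Of the endothelial markers 0 were dim, and of the mural ones 1, Higd1b. The part of vessel cells in the levels of Nes and Vim was not tested.

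Lpar1 and Prom1 encode surface proteins. Lpar1, a G protein-coupled receptor for lysophosphatidic acid whose promoter is used in mice to mark these stem cells, had 9.69 and 9.61 at 4 weeks and 9.48 and 9.60 at 6. It had 9.50 and 9.37 at 8 weeks, 9.11 and 9.21 at 10, and 9.20 and 9.25 at 12 weeks. All arrays of 10 and 12 weeks lay below all arrays of the younger ages, an order whose share over all genes was not computed. The fitted change was -0.49 ± 0.08 (SE), with a 95% interval of -0.67 to -0.32 and an adjusted p of 0.0143. The most negative of its steps was that from 8 to 10 weeks (-0.27 ± 0.08, unadjusted p = 0.00708, adjusted p = 0.999). Its call was lost when replicate 1 or 2 of 4 weeks was left out (adjusted p = 0.0949 and 0.0585), and without both arrays of 12 weeks (0.053) or of 4 weeks (0.388).

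Genes of the oligodendrocyte lineage, in which Lpar1 is also active, fell over the same ages. Of 9 measured markers of myelinating oligodendrocytes, 6 fell and 0 rose (median -0.57), among them the myelin genes Mog (-0.76 ± 0.07), Mag (-0.72 ± 0.10) and Cnp (-0.57 ± 0.09). Mbp, also a myelin gene of that list, missed the threshold (-0.27 ± 0.06, adjusted p = 0.0554). Of 9 genes in the precursor list 6 fell (median -0.32), with Gpr17 at -0.77 ± 0.09, Olig2 at -0.50 ± 0.08 and Olig1 at -0.32 ± 0.06. That list is not confined to precursors, since Gpr17 and Enpp6 (-1.18 ± 0.15) are also genes of newly formed oligodendrocytes. Pdgfra (-0.16 ± 0.08) and Cspg4 (-0.14 ± 0.07), a receptor and a proteoglycan gene of precursors, did not pass. The summed linear signal of the myelinating list was 17.0 to 17.3 units of 1000 at 4 weeks, 15.1 to 16.1 at 6, 12.7 to 13.5 at 8, 12.4 to 13.0 at 10 and 12.1 to 12.2 at 12 weeks. None of the markers in either list was dim. The part of this lineage in the fall of Lpar1 was not tested.

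Prom1, prominin 1 or CD133, is a membrane glycoprotein of cell protrusions. It had 8.34 and 8.44 at 4 weeks, 8.20 and 8.13 at 6, 7.93 and 8.24 at 8, 8.18 and 8.30 at 10, and 8.05 and 8.12 at 12 weeks. The 4-week arrays were the highest of the series, and the lowest value was on the 8-week array that stands apart from the others. Its fitted change was -0.22 ± 0.11 (95% interval -0.45 to 0.02, adjusted p = 0.471). Between 8 and 4 weeks the change was -0.31 ± 0.10 (unadjusted p = 0.0145, adjusted p = 0.435), and it was -0.16 without 8 weeks replicate 1. Without replicate 2, when the array that stands apart is alone at 8 weeks, it was -0.46. Prom1 is also a gene of ependymal cells, of whose 7 markers 0 passed, 1 had an unadjusted p under 0.05 in limma and 4 were dim (Tmem212, Cfap126, Enkur and Mia). Foxj1, which drives their cilia, had a change of 0.00 ± 0.08.

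Fabp7 and Thrsp encode proteins of lipid metabolism. Fabp7, the brain fatty acid-binding protein of radial glia and astrocytes, had 12.85 and 12.91 at 4 weeks, 13.07 and 12.77 at 6, and 12.54 and 12.74 at 8. It had 11.90 and 12.27 at 10 weeks and 12.77 and 12.86 at 12 weeks. Both 10-week arrays were lower than all others, and the 12-week arrays overlapped those of 4 weeks. The change was -0.56 ± 0.14 between 10 and 8 weeks, where 13 of the other 19751 genes had a more negative change (unadjusted p = 0.00292, adjusted p = 0.902). Between 12 and 10 weeks it was 0.73 ± 0.14, where 8 genes had a more positive one (unadjusted p = 0.000493, adjusted p = 0.423). Neither step passed over all genes. The trend over age had the widest interval of the 10 genes, with -0.39 ± 0.25 (95% interval -0.93 to 0.16, adjusted p = 0.624), and ranged from -1.07 to -0.23 over the alternatives. Leaving out each array in turn gave -0.74 to -0.37 for the first of these steps and 0.54 to 0.92 for the second.

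In their summed linear signal the astrocyte markers did not show such a dip. Slc1a2, with the highest mean level of them (13.51), weighs most in that sum, which need not show the course of the other markers. The summed linear signal of the 10 astrocyte genes was 27.3 to 27.5 units of 1000 at 4 weeks, 27.5 to 27.9 at 6, 26.8 to 27.2 at 8, 26.6 to 27.4 at 10 and 25.8 to 26.5 at 12 weeks. Over age 0 of these 10 genes passed in limma and 2 had an unadjusted p under 0.05, with Aqp4 at -0.20 ± 0.10, Gja1 at -0.18 ± 0.05 and Gjb6 at 0.10 ± 0.10, and none was dim. The meningeal fibroblast list had 2.48 to 2.80 units at 4 weeks, 3.31 to 3.77 at 6, 2.97 to 3.57 at 8, 2.16 to 2.79 at 10 and 2.76 to 3.73 at 12 weeks. Over age 0 of its 6 genes passed (median -0.05), with 0 at an unadjusted p under 0.05. Its 10-week arrays overlapped those of 4 weeks and lay below those of 6 and 8 weeks, as they did for the endothelial list. The mural list had the same order, with 4.11 to 4.44 units at 4 weeks, 4.84 to 5.16 at 6 and 4.67 to 4.94 at 8. It had 4.03 to 4.48 at 10 weeks and 4.48 to 5.47 at 12. The endothelial arrays of 10 weeks also lay below those of 12 weeks, while those of the fibroblast and mural lists overlapped them. The part of these cells in the levels of Fabp7 was not tested.

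Thrsp, the thyroid hormone-responsive protein Spot 14, acts in fatty acid synthesis and has been described in slowly dividing stem cells of the adult mouse dentate gyrus. It had 10.45 and 10.32 at 4 weeks, 10.74 and 10.67 at 6, 10.81 and 10.56 at 8, 10.66 and 10.60 at 10, and 10.87 and 10.68 at 12 weeks. The 4-week arrays were the lowest of the series, and no other array overlapped them. The fitted change was 0.28 ± 0.11, with a 95% interval of 0.05 to 0.52, and missed the threshold (adjusted p = 0.3). It was 0.19 without 4 weeks replicate 2 and 0.064 without both 4-week arrays. Most of the difference stood in the first step, with 0.32 ± 0.10 between 6 and 4 weeks, where 153 genes had a more positive change (unadjusted p = 0.0108, adjusted p = 1). Relative to Nes on the same array, Thrsp had a change of 0.80 ± 0.13 (adjusted p = 0.000315). In that direction 96.3% of all genes were called.

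**Figure D2:**
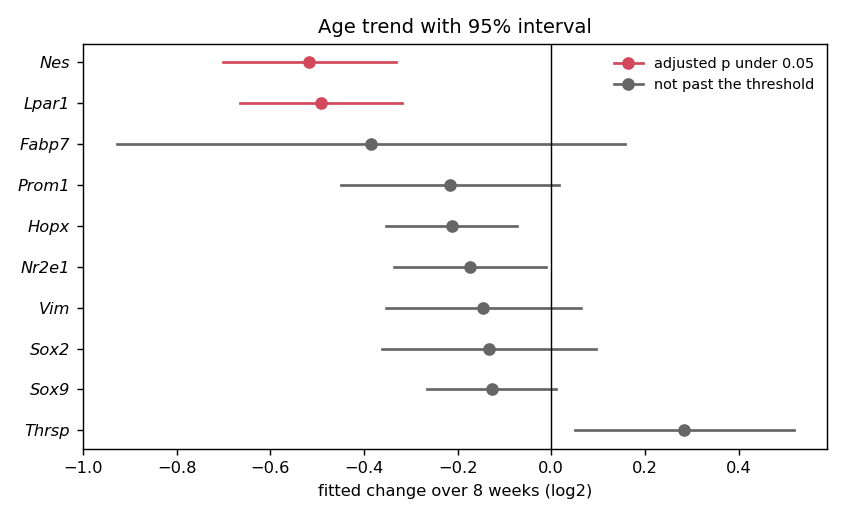
Fitted change over 8 weeks (log2, horizontal axis) of each of the 10 genes, with its 95% interval, in red where the adjusted p is under 0.05. Nes (-0.52) and Lpar1 (-0.49) are red, Fabp7 has the widest interval (-0.93 to 0.16), and Thrsp is the gene to the right of 0 (0.28).

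The remaining 4 genes encode nuclear proteins. Hopx, an atypical homeodomain protein that does not bind DNA itself and is found in resting stem cells, had 10.06 and 10.13 at 4 weeks, 10.04 and 9.98 at 6, and 10.00 and 9.96 at 8. It had 9.78 and 9.95 at 10 weeks and 9.90 and 9.91 at 12 weeks. All arrays of 10 and 12 weeks lay below all arrays of the younger ages, but the margin was tiny. The highest of the older values was 9.954, at 10 weeks, and the lowest of the younger ones 9.955, at 8 weeks. Its change of -0.21 ± 0.06 had a 95% interval of -0.35 to -0.07 but an adjusted p of 0.184. In the alternatives its adjusted p ran from 0.0973 to 0.772, so none called it.

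Nr2e1, the orphan nuclear receptor Tlx that keeps adult neural stem cells self-renewing, had 9.97 and 10.00 at 4 weeks, 9.89 and 9.91 at 6, 9.99 and 9.88 at 8, 9.72 and 9.99 at 10, and 9.80 and 9.78 at 12 weeks. The 10-week arrays lay 0.27 apart, which is more than the fitted change of -0.17 ± 0.07 (95% interval -0.34 to -0.01, adjusted p = 0.387). Sox2, an HMG-box transcription factor that maintains stem cells, had 10.91 and 10.74 at 4 weeks, 10.77 and 10.63 at 6, 10.59 and 10.74 at 8, 10.58 and 10.82 at 10, and 10.50 and 10.82 at 12 weeks. Its replicates differed by up to 0.32, and the ages overlapped throughout. The fitted change was -0.13 ± 0.10 (95% interval -0.36 to 0.09, adjusted p = 0.701), and with single arrays left out it ranged from -0.23 to -0.05. Sox9, a related factor of radial glia and astrocytes, had 11.05 and 10.91 at 4 weeks, 11.01 and 11.00 at 6, 11.01 and 10.99 at 8, 10.91 and 11.00 at 10, and 10.82 and 10.87 at 12 weeks. The 12-week arrays were the lowest of the series. Sox9 had a fitted change of -0.13 ± 0.06 (95% interval -0.27 to 0.01, adjusted p = 0.474).

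Missing the threshold does not show that a level stayed the same, and the intervals bound what these arrays allow. The 95% interval of 7 of the other 9 genes lay wholly above the change of Nes, and those of Lpar1 and Fabp7 contained it. The test of the difference gave the same division, but it uses the same levels and so adds no separate support. Relative to Nes, 7 of 9 genes had a less negative or a positive trend at an adjusted p under 0.05, from 0.30 ± 0.14 for Prom1 (adjusted p = 0.0496) to 0.80 for Thrsp. Hopx had 0.30 ± 0.12 and Sox9 0.39 ± 0.11. Lpar1 had a difference of 0.02 ± 0.12 (95% interval -0.23 to 0.28) and Fabp7 of 0.13 ± 0.22 (-0.33 to 0.59). Of all genes 96.3% were called in that direction and 0.0709% as more negative than Nes, so the count of 7 is no feature of stem cell genes. Nes was chosen for this test with its fall known, and its values enter every difference. The call of Prom1 was lost in 10 of 21 alternatives, 7 of them single arrays left out, and that of Hopx in 6, among them log2 of age (0.0576) and leaving out replicate 1 of 4 weeks (0.0529) or replicate 2 of 6 weeks (0.0531). Sox9 and Thrsp were called in all 21. Without either 12-week array 3 of the 9 were called, Thrsp and Sox9 both times, with Sox2 when replicate 1 was left out and Nr2e1 when replicate 2 was.

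The ends of the series were also compared directly. Both 12-week arrays lay below both 4-week arrays for 6 of the 10 genes (Nes, Hopx, Lpar1, Sox9, Prom1 and Nr2e1) and above them for 1, Thrsp. The background was 22.2% of all genes below and 21.6% above. None of the 10 was called by limma between 12 and 4 weeks (5 at an unadjusted p under 0.05, against 9.57% of all genes), where 0.39% of all genes were called lower and 0.127% higher. Nes averaged 7.18 ± 0.04 at 12 weeks and 7.64 ± 0.04 at 4 weeks (SD, n = 2 each), a difference of -0.46 ± 0.10 (SE), for which limma gave an adjusted p of 0.0937. Lpar1 averaged 9.22 ± 0.03 at 12 weeks and 9.65 ± 0.06 at 4 weeks (SD, n = 2 each), a difference of -0.43 ± 0.08, for which limma gave 0.0611. Leaving out either 8-week array changes the shared spread and not these means, so both differences stayed at -0.46 and -0.43. Thrsp had a difference of 0.39 ± 0.10 (adjusted p = 0.185), and Prom1 had -0.31 ± 0.10 (0.338). Fabp7 (-0.07 ± 0.14) and Vim (-0.03 ± 0.08) were the pair closest to no difference.

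A moderated F-test for any difference among the 5 ages called 0 of the 10 genes and 0.167% of all genes. The smallest adjusted p among the 10 was 0.169 for Lpar1, followed by 0.209 for Fabp7 and 0.271 for Nes, and 5 of the 10 had an unadjusted p under 0.05, against 8.46% of all genes. Between 8 and 4 weeks 0 of the 10 were called, against 0.0506% of all genes lower and 0% higher. There 3 of the 10 and 9.71% of all genes had an unadjusted p under 0.05. None was called between 12 and 8 weeks, where Nes had -0.31 ± 0.10 and Lpar1 -0.21 ± 0.08 (adjusted p = 0.543 and 0.598), nor in any of the 4 successive steps. Across all genes those tests called 0%. At an unadjusted p under 0.05 the later interval had 2 of the 10, against 8.13% of all genes. The successive steps had 1, 0, 3 and 2 of the 10, against 4.13%, 6.25%, 4.79% and 5.59% of all genes. The difference between the later and the earlier interval, the change from 8 to 12 weeks less that from 4 to 8, was called for 0 of the 10 genes and 0% of all genes by limma. At an unadjusted p under 0.05 it had 0 of the 10 and 8.17% of all genes. Without 8 weeks replicate 2 it was called for 1876 genes, 1 of the 10 among them (Prom1), and the step from 6 to 8 weeks for 1079 genes. It was -0.16 ± 0.16 for Nes and 0.01 ± 0.14 for Lpar1.

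Other genes known from radial glia-like cells form a list of 31 measured genes. Of these 3 fell and 0 rose, against 0.673% and 0.147% of all genes, 26 had a negative change, against 48.8% of all genes, and the median was -0.10. Ednrb, the endothelin receptor B gene of astrocytes and stem cells, fell by 0.41 ± 0.06 (adjusted p = 0.0089). Id3, an inhibitor of basic helix-loop-helix factors, fell by 0.40 ± 0.08 (0.0337), and Cd9, a tetraspanin gene that is also active in oligodendrocytes, fell by 0.39 ± 0.07 (0.0207). None of the 3 passed without 4 weeks replicate 1 (adjusted p = 0.0676 for Ednrb, 0.178 for Id3 and 0.135 for Cd9). The other counts below 2 came without 10 weeks replicate 2 or without 12 weeks replicate 1, when only Ednrb passed, without both 12-week arrays, when only Cd9 passed, and without both 4-week arrays, when none did. The first genes of the list, Gfap (-0.12 ± 0.07, adjusted p = 0.57) and Id1 (-0.27 ± 0.10, 0.275), did not pass. The Notch target genes Hes1 and Hes5 had changes of -0.07 ± 0.09 and 0.04 ± 0.08, and the hedgehog pathway genes Ptch1 and Gli1 had 0.09 ± 0.07 and -0.08 ± 0.08. Aldoc and Slc1a3, abundant in astrocytes, had 0.02 ± 0.06 and -0.11 ± 0.06. Msi1, an RNA-binding protein gene of neural stem cells, just missed the threshold (-0.25 ± 0.05, adjusted p = 0.0538), and 6 of the 31 had an unadjusted p under 0.05, all lower. The list has 2 dim genes, Wnt8b and Vnn1.

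Genes of the lists for dividing cells, which mark no single cell type, and for descendants of radial glia-like cells fell as well. In the dividing cell list 6 of 14 measured genes fell and 0 rose (median -0.37), with Mki67 at -0.87 ± 0.12, Top2a at -0.74 ± 0.13 and Ccna2 at -0.87 ± 0.09. Mki67 and Top2a averaged 6.97 and 6.86 at 12 weeks, below the dim level of both arrays of that age (6.98 and 7.04), so the size of their fall is uncertain. The list has 3 dim genes, Bub1, Birc5 and Cenpf. In the intermediate progenitor list 3 of 6 fell (median -0.47), Eomes by 1.14, Igfbpl1 by 1.35 and Sstr2 by 0.69 on the log2 scale. In the neuroblast list 6 of 8 fell (median -0.83), among them Dcx by 1.34 and Cd24a by 1.83. The summed linear signal of the intermediate progenitor list was 3.84 to 3.95 units of 1000 at 4 weeks, 3.25 to 3.35 at 6, 2.96 to 3.04 at 8, 2.57 to 2.60 at 10 and 2.47 to 2.64 at 12 weeks. Nestin is also expressed by dividing progenitors, and their part in its fall was not tested. Of all genes, 14 had a trend called as more negative than that of Nes.

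**Figure D3:**
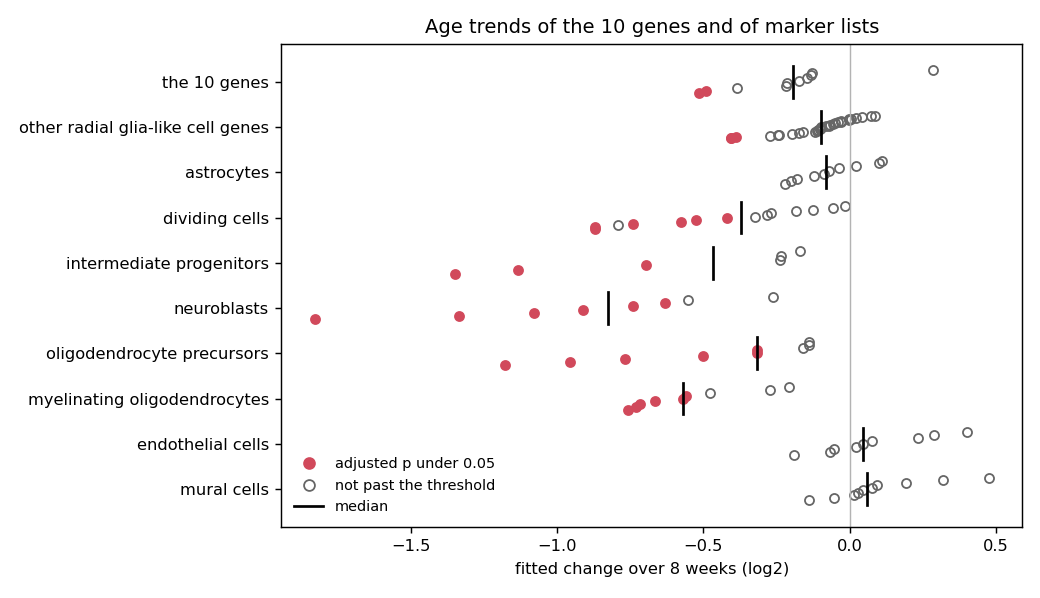
Fitted change over 8 weeks (log2, horizontal axis) of each gene in 10 lists, with filled red points where the adjusted p is under 0.05 and a black bar at the median of the list. The medians of the 10 genes (-0.19), of the other radial glia-like cell genes (-0.10) and of astrocytes (-0.08) lie nearer to 0 than those of neuroblasts (-0.83) and myelinating oligodendrocytes (-0.57).

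The levels of the 10 genes were correlated to unequal degrees. Of their 45 pairs 36 had a Pearson correlation of levels above 0 over the 10 arrays, with a median of 0.37; 35 of the 36 pairs without Thrsp were above 0. These are descriptions over arrays that share ages, and carry no test. The share of such pairs among all genes was not computed. Fabp7 and Vim had the highest value, r = 0.914 (Spearman's rho 0.745), which was 0.557 over the 8 arrays left without those of 10 weeks. It thus rested in part on the 10-week arrays. Hopx and Lpar1 had r = 0.858 (rho 0.927), and 0.839 without the 2 arrays farthest from the median of Hopx. Hopx and Nr2e1 had 0.821 (rho 0.782), and 0.630 without the same arrays. Nes and Lpar1, the pair that fell, had r = 0.812 (rho 0.782), and 0.740 without the 2 arrays farthest from the median of Nes. Their deviations from the mean of each age had r = -0.493. With 2 arrays per age the deviations of an age mirror each other, so such a value rests on 5 differences between replicates. It allows no conclusion on what replicates share. The deviations had r = 0.541 for Fabp7 and Vim, 0.219 for Hopx and Lpar1, and 0.874 for Hopx and Nr2e1. Thrsp and Prom1 ran opposite to each other, with r = -0.907 (rho -0.903), and -0.824 for the deviations within ages. Without the 8-week array that stands apart the value was -0.929, and without those of 4 weeks -0.792.

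**Figure D4:**
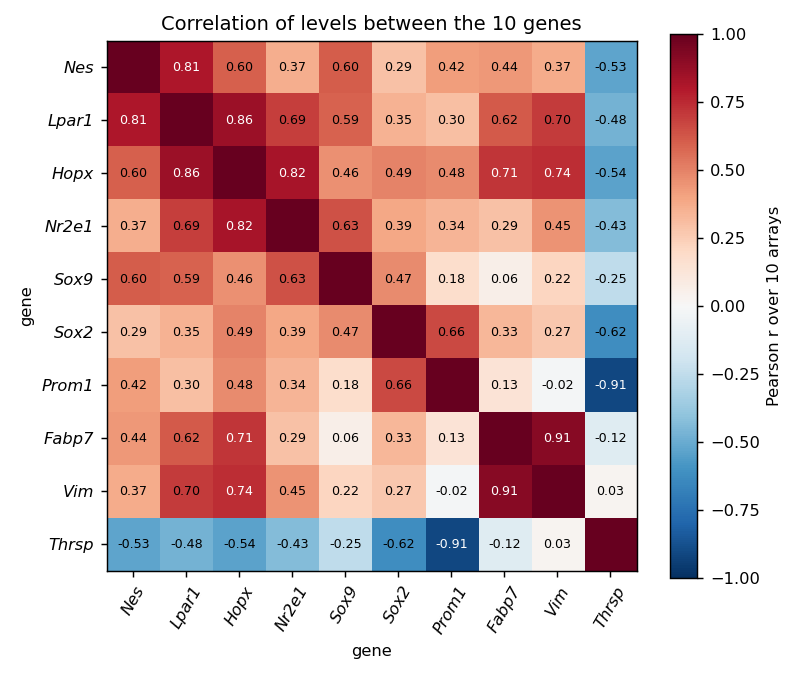
Pearson correlation of levels over the 10 arrays for each pair of the 10 genes, in red above 0 and blue below. Fabp7 and Vim have the highest value (0.91) and Thrsp and Prom1 the lowest (-0.91).

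For each gene the other genes with the most similar levels over the 10 arrays were found among 14386 genes above the dim level, by Pearson correlation, which with 10 arrays is high for some genes by selection alone. They were Brd2 (0.965), Dbn1 (0.948) and Kdm4b (0.947) for Nes. Lpar1 had Rrm2 (0.975), Midn (0.964) and Sipa1 (0.952), of which Rrm2 is a gene of the dividing cell list that fell by 0.58 on the log2 scale. For Hopx they were Ccdc80 (0.945), Smpdl3a (0.935) and Idi1 (0.924), and for Nr2e1 Wiz (0.931), Foxm1 (0.915) and Ccdc114 (0.903). Fabp7 had Emp2 (0.967), Atr (0.957) and Ebp (0.944), and Vim had Calcrl (0.935), Ebp (0.932) and S1pr3 (0.931), so that Ebp stood in both sets. Thrsp had Ablim1 (0.968), Stra6 (0.957) and Tmem88 (0.933), and Prom1 had Sarnp (0.971), Ptprz1 (0.963) and Aamdc (0.942). Sox2 had Uqcc3 (0.900), Ugdh (0.887) and Rab33b (0.882), and Sox9 had Isca2 (0.937), Nlk (0.932) and Myo19 (0.927).

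In RefSeq coordinates of GRCm38.p6 (mm10), the fallen genes lie on chromosome 3 at 87971093 to 87980451 (Nes) and on chromosome 4 at 58435252 to 58554027 (Lpar1). Fabp7 lies on chromosome 10 at 57784923 to 57788450, where Nr2e1 also lies, at 42561963 to 42583590. Vim is on chromosome 2 at 13574311 to 13582826 and Thrsp on chromosome 7 at 97412933 to 97417550. Hopx and Prom1 are both on chromosome 5, at 77086986 to 77115123 and 43993621 to 44102047. Sox2 is on chromosome 3 at 34649995 to 34652461 and Sox9 on chromosome 11 at 112782210 to 112787757.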

How the data were processed

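The authors deposited 1 value per probe set and array, taken here as log2 expression because the values run continuously from 2.50 to 15.0 with array medians of 8.27 to 8.31. The log base, the normalization and the program that made the values are not given in the sources used here, so the size of every fold change rests on that reading. Tissue was cut out with a needle, broken up with tweezers and treated with DNase before biotin labelling, per the labels' protocols. The build was mm10, per the submitters' processing notes. The number of arrays limits the precision.

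Of 25254 probe sets 21496 had 1 annotated gene, 1565 several and 2193 none; only the first kind was used. Symbols were checked by gene number against RefSeq (GRCm38.p6), and 0 changed. For genes with several probe sets (938), the one of highest mean stood for the gene; 19752 genes resulted and no filter was set. Groups came from the sample titles. All limma tests were two-sided (version 3.58.1, R 4.3.3, eBayes with its default options); p-values were adjusted over all genes, and errors of changes are standard errors. Age was a number for the trend and a factor for the F-test and the comparisons of ages. The code was tested on simulated data.

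The genes, lists and tests were chosen with earlier results of these data known. Genes named are the 10 stem cell genes with the 3 others of highest correlation for each, and genes of the lists. The plan was to name the first 3 measured genes of each list and called ones. That was not kept throughout, since some lists have no named gene and some called genes are not named. Other names were chosen after their values were seen. Linear signal is 2 to the power of the level, summed over a list.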

Additional observations from a re-analysis of the deposited data

How the results depend on the processing

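Each test was repeated without each array in turn, with array weights, with trended and robust variances, without the dimmest 30% of genes, with levels centred on the median or quantile normalized, with probe sets of a gene averaged, and with the replicate number as a block. For both trends log2 of age and leaving out both arrays of 12 or of 4 weeks were added, and, chosen after seeing the data, leaving out 6 weeks replicate 1 with 8 weeks replicate 1. The trend called 2 of the 10 genes, Nes and Lpar1, in 15 of 21 alternatives; it called 0 to 2 when single arrays were left out, 0 without the 12-week arrays and 0 without the 4-week arrays. All 10 genes kept the direction of their trend in all 21. Between 12 and 4 weeks 2 were called without the dimmest 30% of genes (Lpar1 and Nes), 2 with trended and robust variances (Lpar1 and Thrsp), 2 with array weights (Lpar1 and Nes) and 0 to 2 without single arrays. The F-test called 1, Lpar1, with trended and robust variances and 1 with array weights. Without single arrays 0 to 2 were called between 8 and 4 weeks (Prom1 and Thrsp, when the 8-week array that stands apart was the lone array of its age) and 0 to 1 in the difference between the later and the earlier interval (Prom1, in the same fit). In such fits the lone array is assumed to vary like the other ages. Relative to Nes, 3 to 7 were called without single arrays and 3 without the 12-week arrays. There the difference of Fabp7 from Nes turned to -0.56 without the 12-week arrays (adjusted p = 0.0318) and ranged from -0.0763 to 0.30 without single arrays. That of Lpar1 turned to -0.12 without the 12-week arrays and to -0.0127 with array weights, and ranged from -0.0215 to 0.0737 without single arrays. The causes were not tested.

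Over all genes the trend called 162 as reported, 35 to 279 without single arrays, 51 without the 12-week arrays, 7 without the 4-week arrays, 337 without the dimmest genes, 363 with trended and robust variances and 417 with array weights. The comparison of 12 with 4 weeks called 102, with 13 to 304 in the alternatives, the F-test 33 (5 to 158), that of 8 with 4 weeks 10 (0 to 1425), that of 12 with 8 weeks 0 (0 to 985), that of 8 with 6 weeks 0 (0 to 1079) and the difference between intervals 0 (0 to 1876); the highest of the last 4 all came without 8 weeks replicate 2. The replicate numbers were shared between ages by name only: 3 of 10 correlations between ages of the replicate differences were above 0.1, and they ranged from -0.335 to 0.160. With the replicate block the trend called 161 genes, among them 2 of the 10, and 6 of 9 relative to Nes, where Prom1 was lost. Among the 10 genes signal over background limits Nes most, since its values at 12 weeks lay 0.17 above the dim level and 1 at 10 weeks lay 0.10 above it.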
